A study of Mus musculus with 30 samples.

Results

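Txnip, Arrdc4, Mlx, Mlxip and Mlxipl were followed across both RNA-seq experiments of the series. They were taken by gene symbol, were selected on their measured RNA levels in these same comparisons of media, and are 5 of the 55487 genes in the passage table. The time-course table lists 52630 genes, and Txnip over the time course was not analysed here. The time course used mouse ESCs of the E14tg2a line, either held in Serum/LIF (labelled 0 h) or moved to EMM for 3, 9 or 24 h. In the passage experiment, E14tg2a ESCs were kept in Serum/LIF, in EMM or in 2i/LIF, and RNA was taken at passage 10 (P10) and passage 20 (P20). Each group had 3 libraries, which gave 12 libraries in the time course and 18 in the passage experiment. EMM is Serum/LIF medium with D-galactose in place of glucose and pyruvate, and 2i/LIF holds ESCs in a naive state with inhibitors of the kinases GSK3 and MEK. All libraries came from this 1 wild-type line, and LIF was present in every medium. The labels call the Serum/LIF libraries of the time course 0 h, while their treatment text speaks of a 24 h culture, so these cells may not be a sample from the moment of the medium change.

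Glucose that enters a cell is phosphorylated to glucose-6-phosphate, and the transcription factors MondoA (encoded by Mlxip) and ChREBP (encoded by Mlxipl) respond to that metabolite. Each of them pairs with Mlx, and the pair binds the carbohydrate response element (ChoRE), a motif of 2 E-box-like blocks a few bases apart. Txnip and Arrdc4 are their best-known targets. Both encode alpha-arrestins that reduce glucose uptake, and the Txnip protein also binds and inhibits thioredoxin.

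The promoters of Txnip and Arrdc4 are shown because these 2 genes carried the largest differences among the 5. Txnip (ENSMUSG00000038393) lies on the plus strand of chromosome 3 from 96557957 to 96561883 in GRCm38. Arrdc4 (ENSMUSG00000042659) lies on the minus strand of chromosome 7 from 68736995 to 68749241. The 250 bases before each RefSeq start are printed from GRCm38.p6, on the strand of the gene, for Txnip from chr3:96557707-96557956 (plus strand) and for Arrdc4 from chr7:68749239-68749488 (minus strand). Capitals mark the motif that was found.
Txnip: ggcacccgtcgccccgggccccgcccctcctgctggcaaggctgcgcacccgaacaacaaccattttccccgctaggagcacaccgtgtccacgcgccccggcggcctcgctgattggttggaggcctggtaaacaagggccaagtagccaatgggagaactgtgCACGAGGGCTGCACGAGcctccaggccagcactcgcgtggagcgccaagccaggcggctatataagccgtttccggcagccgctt
Arrdc4: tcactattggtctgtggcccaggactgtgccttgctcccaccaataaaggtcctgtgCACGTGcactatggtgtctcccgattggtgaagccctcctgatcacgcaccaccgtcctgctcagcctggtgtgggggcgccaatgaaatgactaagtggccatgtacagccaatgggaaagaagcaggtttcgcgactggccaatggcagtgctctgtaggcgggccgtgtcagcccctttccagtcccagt
The Txnip window held a ChoRE with 1 mismatch, 85 to 69 bases before the start (96557872 to 96557888), whose letters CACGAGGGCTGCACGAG are in capitals above. Of 32851 RefSeq promoter windows, which run from 250 bases before to 50 after a start, 2.36% held a ChoRE with up to 1 mismatch, and 0.119% held an exact one. The Arrdc4 window held the E-box CACGTG 193 to 188 bases before the start (68749426 to 68749431) and no ChoRE by this search. Mlx held the same E-box 40 to 35 bases before its start. Mlxipl held it 98 to 93 bases before the first of its 2 RefSeq starts, with no match at the second, and Mlxip had no match. The E-box was in 7.15% of all windows. Both motifs read the same on either strand, so 1 search covered both strands. An E-box can be part of a ChoRE, but none of the matches in the 5 genes overlapped. A match describes the sequence only.

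Txnip was the most abundant of the 5 genes in Serum/LIF at P10 and P20, and it was low in EMM. In CPM (reads scaled to the library size after TMM normalization) per kilobase of exon, a level that allows genes to be compared, Txnip reached 54.3 ± 5.79 (SD, n = 3) in Serum/LIF at P10, against 16.4 for Mlx, 14.03 for Arrdc4, 5.64 for Mlxip and 1.46 for Mlxipl. In EMM at P10 the Txnip level was 0.830 ± 0.243 (SD, n = 3), below that of Arrdc4 (0.911), Mlx (17.0) and Mlxip (5.10) and above that of Mlxipl (0.359). The gene thus led the 5 in Serum/LIF at P10 and was ahead of Mlxipl alone in EMM at P10. In EMM at P20 its mean level (0.484) was the lowest of the 5, below that of Mlxipl (0.836).

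Per library, the normalized count of Txnip in Serum/LIF at P10 was 2380.2, 2617 and 2942. In EMM at P10 it was 27.3, 43.6 and 50.4, from raw counts of 34, 28 and 22. No EMM library came near the lowest Serum/LIF library. The mean ratio was 65.4-fold lower in EMM, with a log2 fold change of -6.15 (SE 0.21), and EMM retained 1.53% ± 0.448 (SD, n = 3) of the Serum/LIF mean.

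At P20, Txnip had normalized counts of 3113, 3327 and 3229 in Serum/LIF and of 27.0, 21.3 and 22.5 in EMM. The 2 groups were again far apart. The ratio was 137-fold, the log2 fold change was -7.11 (SE 0.20), and 0.731% ± 0.0934 (SD, n = 3) of the Serum/LIF mean remained. Of 16054 genes tested, 14 had a lower fold change than Txnip at P20, and 59 had a lower one at P10. No p-value is given for the fold changes of the 5 genes, because they were chosen with these values known.

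Arrdc4, the other alpha-arrestin of the group, was lower within hours of the medium change. Its normalized counts in Serum/LIF were 1519, 1599 and 1615, and at 3 h of EMM they were 382, 366 and 311. At 9 h they were 125, 135 and 137, and at 24 h 100.5, 108 and 107. Each time point lay wholly below the one before it. The log2 fold change against Serum/LIF was -2.16 (SE 0.07) at 3 h, -3.58 (SE 0.08) at 9 h and -3.91 (SE 0.08) at 24 h. These 3 comparisons share the same Serum/LIF libraries.

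Most of the difference in Arrdc4 was present early. Of the difference in mean level seen at 24 h, 83.2% was present at 3 h and 98.2% at 9 h, when 22.4% ± 2.36 and 8.38% ± 0.386 (SD, n = 3 each) of the Serum/LIF level remained. From 9 to 24 h the level went from 132 to 105, with a log2 fold change of -0.33 (SE 0.10). Among 16049 genes tested, Arrdc4 had the 23rd lowest fold change at 3 h and the third lowest at 9 h and at 24 h.

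**Figure D1:**
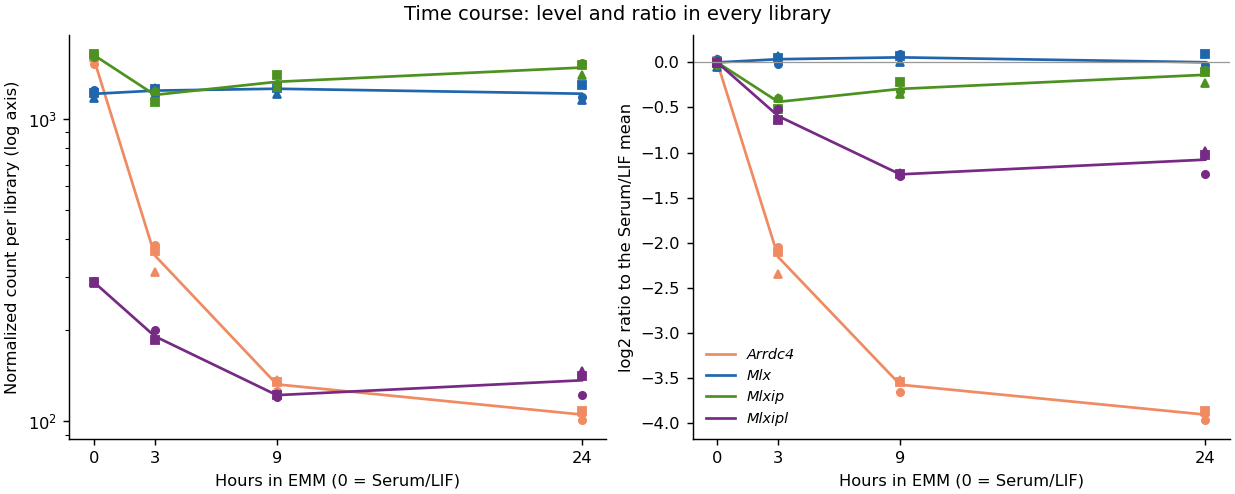
Normalized counts (left, log axis) and log2 ratios to the Serum/LIF mean (right) of Arrdc4, Mlx, Mlxip and Mlxipl against hours in EMM. Each marker is 1 library, its shape is the replicate number, and lines join group means. Mean counts of Arrdc4 go from 1577 at 0 h to 105 at 24 h and those of Mlxipl from 288 to 136, and the libraries of Mlx lie within 1154 to 1292.

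The level of Arrdc4 after long-term culture was close to that at 24 h when each was expressed as a share of its own Serum/LIF group. At P10 the normalized counts were 906, 878 and 870.0 in Serum/LIF and 57.9, 63.9 and 50.4 in EMM. At P20 they were 875, 938 and 902 in Serum/LIF and 44.7, 72.7 and 45.7 in EMM, where replicate 2 was the highest. EMM lay below Serum/LIF in every library at both passages. The share that remained was 6.66% ± 0.253 at 24 h, 6.49% ± 0.765 at P10 and 6.01% ± 1.76 at P20 (SD, n = 3 each), and the log2 fold changes were -3.93 (SE 0.20) and -4.02 (SE 0.18) at P10 and P20. Without P20 EMM replicate 2 the value at P20 was -4.32. The time course and the passage experiment were normalized apart, so their counts are not on 1 scale.

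Per kilobase, the level of Txnip was 3.87-fold that of Arrdc4 in Serum/LIF at P10 and 4.61-fold at P20. In EMM the 2 genes were close at P10 (CPM per kilobase of 0.830 for Txnip and 0.911 for Arrdc4), and Txnip was the lower at P20 (0.484 and 0.863). The P20 minus P10 difference of the EMM effect was -0.96 (SE 0.32) on the log2 scale for Txnip and -0.09 (SE 0.27) for Arrdc4. Txnip in EMM was lower at P20 than at P10 (log2 fold change -0.67, SE 0.29), with a narrow gap between the highest P20 library (27.0) and the lowest P10 library (27.3), and 26.3% of all tested genes were lower at P20 without overlap. Arrdc4 in EMM did not separate by passage.

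**Figure D2:**
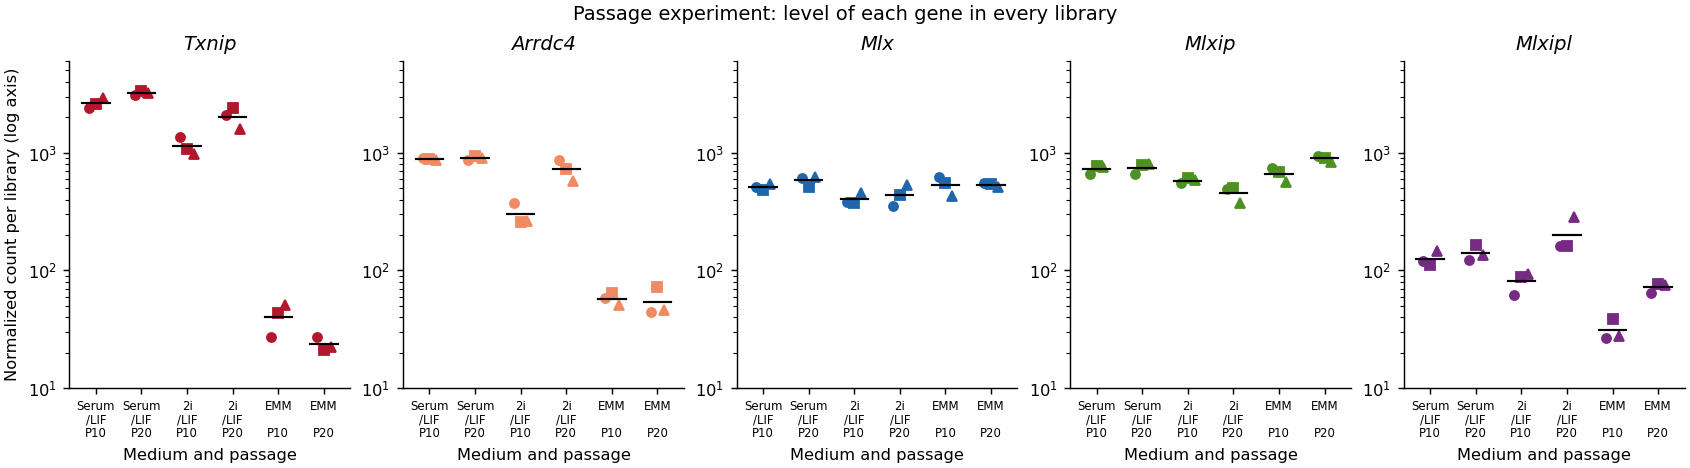
Normalized counts of the 5 genes in the 18 passage libraries, on a log axis, by medium and passage. Markers are libraries, their shape is the replicate number, and bars are group means. Txnip and Arrdc4 in EMM stand apart from both other media, with means of 40.5 and 57.4 at P10, whereas Mlx overlaps between EMM and Serum/LIF.

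The genes for the transcription factors themselves differed less between the media. Mlx, the shared partner, had normalized counts of 1239, 1214 and 1169 in Serum/LIF of the time course, 1194, 1254 and 1266 at 3 h, 1292, 1266 and 1208 at 9 h, and 1183, 1289 and 1154 at 24 h. These ranges overlapped at every time point. The log2 fold changes of Mlx were 0.04, 0.06 and 0.00 (SE 0.05 each), and the value at 3 h was -0.03 with libraries scaled by their totals alone, so the sign is not settled. In the passage experiment Mlx had 511, 480.2 and 547 in Serum/LIF at P10 and 617, 549 and 426 in EMM, and 611, 511 and 623 against 549.8, 544 and 515 at P20. EMM and Serum/LIF overlapped at both passages, with log2 fold changes of 0.07 (SE 0.14) and -0.11 (SE 0.14). These intervals leave room for small differences.

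Mlxip, which encodes MondoA, had its lowest level at 3 h and was nearer to Serum/LIF at 9 and 24 h. Its normalized counts were 1595, 1632 and 1641 in Serum/LIF, 1231, 1133 and 1229 at 3 h, 1305, 1396 and 1269.8 at 9 h, and 1529, 1506 and 1389.6 at 24 h. Every EMM library was below every Serum/LIF library. The log2 fold changes were -0.44, -0.29 and -0.14 (SE 0.05 each). At P10 the 2 media overlapped (664, 776 and 759 in Serum/LIF, 738, 687 and 564 in EMM, log2 fold change -0.13, SE 0.12). At P20 the order was the opposite of the time course: 659.6, 779 and 798 in Serum/LIF lay below 946, 900.3 and 833 in EMM, with a log2 fold change of 0.26 (SE 0.11).

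Mlxipl, which encodes ChREBP, was the least abundant of the genes measured per kilobase in Serum/LIF in both experiments (4 in the time course, 5 in the passage experiment) and the factor gene with the larger difference in EMM. Its normalized counts were 291, 287 and 286 in Serum/LIF, 201, 185 and 186 at 3 h, 119.9, 122 and 123 at 9 h, and 122, 141 and 146 at 24 h. Libraries at 9 and 24 h overlapped with each other and lay below those at 3 h. The log2 fold changes against Serum/LIF were -0.60 (SE 0.08), -1.24 (SE 0.08) and -1.08 (SE 0.08). Of the difference in mean level at 24 h, 64.2% was present at 3 h, a smaller share than for Arrdc4.

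At P10, Mlxipl had normalized counts of 119.6, 111 and 147 in Serum/LIF and 26.5, 39.0 and 27.5 in EMM, a log2 fold change of -2.03 (SE 0.26). At P20 it had 123, 163 and 136 against 64.2, 77.2 and 75.4, a log2 fold change of -0.96 (SE 0.22). EMM was lower in every library at both passages. The difference of the EMM effect, P20 minus P10, was 1.07 (SE 0.34) on the log2 scale, and the EMM level itself was 2.33-fold higher at P20.

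Counted by groups that did not overlap, Arrdc4, Mlxip and Mlxipl, 3 of the 4 genes measured, were lower in EMM at 3, 9 and 24 h, when 29.4%, 28.6% and 29.6% of all tested genes were lower in this way. At P10, Txnip, Arrdc4 and Mlxipl, 3 of 5, were lower (29.4% of all tested genes). At P20 the same 3 genes were lower (29.5%) and Mlxip was higher (30% of all tested genes). The genes were chosen with these comparisons known, so the counts carry no weight beside the background. The size of the differences is shown in the plot of log2 fold changes.

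**Figure D3:**
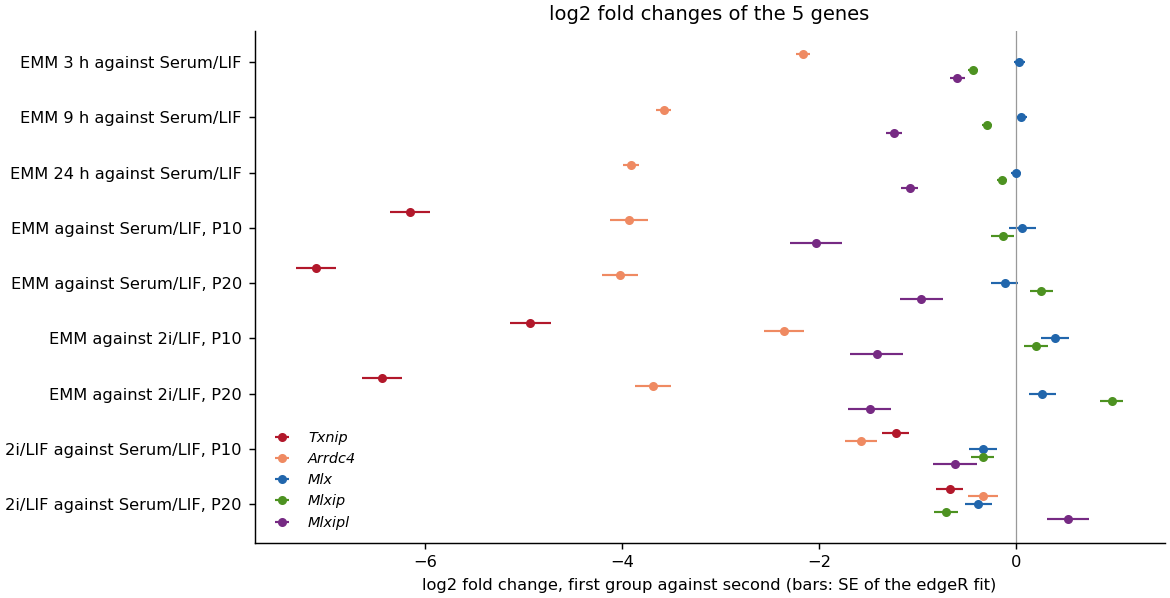
Log2 fold changes of the 5 genes (x axis) in 9 comparisons (y axis). Points are the values of the edgeR fit and bars their SE. Txnip lies between -4.93 and -7.11 wherever EMM is compared with another medium, and Mlx lies within 0.40 of 0 in all 9 comparisons.

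The naive medium 2i/LIF, whose usual base medium contains glucose, also had lower Txnip and Arrdc4 than Serum/LIF, by far less than EMM. Txnip had normalized counts of 1353, 1076 and 984 in 2i/LIF at P10 and 2086, 2388 and 1599 at P20. All were below the Serum/LIF libraries of the same passage, with log2 fold changes of -1.22 (SE 0.14) and -0.67 (SE 0.14). All 5 genes were lower in 2i/LIF without overlap at P10, when 32.7% of all tested genes were, and Txnip, Arrdc4 and Mlxip were at P20 (31.3% of all tested genes). Against 2i/LIF, EMM was lower by a log2 fold change of -4.93 (SE 0.21) at P10 and -6.44 (SE 0.20) at P20. Arrdc4 in 2i/LIF had 374, 260.0 and 264 at P10 and 862, 733 and 578 at P20. The P20 libraries were all below the lowest Serum/LIF library of that passage (875), the highest by a small margin. Arrdc4 had a log2 fold change of -1.57 (SE 0.16) against Serum/LIF at P10 and of -0.33 (SE 0.15) at P20, and EMM was below 2i/LIF by -2.35 (SE 0.20) and -3.69 (SE 0.18).

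In 2i/LIF the genes also differed by passage. From P10 to P20, Txnip was higher by a log2 fold change of 0.84 (SE 0.14), Arrdc4 by 1.27 (SE 0.16) and Mlxipl by 1.31 (SE 0.22), and in each case the 2 passages did not overlap, as in 20% of all tested genes that were higher at P20 and 22.2% that were lower. Mlxip went the other way, also without overlap (-0.35, SE 0.12), and Mlx overlapped (0.13, SE 0.14). In Serum/LIF the differences of Txnip, Arrdc4 and Mlxipl were 0.28 (SE 0.14), 0.03 (SE 0.15) and 0.17 (SE 0.22), and only Txnip of the 5 genes separated the passages, as 20.7% of all tested genes did that were higher at P20. Mlx in 2i/LIF was below Serum/LIF by -0.33 (SE 0.14) at P10, without overlap, and by -0.38 (SE 0.14) at P20, with overlap. Mlxip in 2i/LIF was lower than in Serum/LIF at both passages (-0.34, SE 0.12, and -0.71, SE 0.12) and lower than in EMM at P20, where EMM against 2i/LIF gave 0.97 (SE 0.12). Mlxipl in 2i/LIF had 61.2, 88.6 and 92.9 at P10, all below Serum/LIF, and 160, 163 and 282 at P20, which overlapped with it. With library totals alone the median gene moved by -0.12 (log2) in 2i/LIF against Serum/LIF at P20, so the smaller values of that comparison depend on the scaling.

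Ordered by level, Txnip ran from Serum/LIF at P20 through Serum/LIF at P10, 2i/LIF at P20, 2i/LIF at P10 and EMM at P10 to EMM at P20. Among neighbours in this order, Serum/LIF at P10 and 2i/LIF at P20 overlapped, and the others did not. Arrdc4 had the same order of group means, with overlap between the 2 Serum/LIF groups and between the 2 EMM groups. For Mlx every neighbouring pair overlapped.

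Genes with the profile most like that of Txnip were sought by Pearson correlation over the 18 passage libraries. Each of the 12709 genes searched had a mean of at least 50 normalized counts in the group where it was highest. The points share the 6 groups, so these values are descriptions. Txnip and Arrdc4 were both chosen with their levels in these media known, so their likeness to each other carries no weight as evidence. The closest were Cdk18 (r = 0.98), Arrdc4 (0.98), March5 (0.97), Tyw1 (0.96) and Ikbke (0.95). Mlxipl ranked 380th with r = 0.76, and Mlx and Mlxip had r = -0.22 and -0.41. For Arrdc4, the lower of its r over the 12 time-course and the 18 passage libraries was used. Among 11827 genes that reached such a mean in both experiments, this gave Cdk18 (0.96), Pttg1 (0.95), March5 (0.95), Cars (0.94) and Bcas1 (0.93). Cdk18 and March5 were thus in both lists of 5. Mlxipl ranked 107th, with r = 0.97 in the time course and 0.80 in the passage experiment.

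The other genes of the pathway were taken from 7 lists of 48 genes, of which 40 were tested in the time course and 41 in the passage experiment. They were tested with edgeR's quasi-likelihood test, and a gene passed when its Benjamini-Hochberg adjusted p was under 0.01. At 3 h of EMM, 8 stood above and 9 below their Serum/LIF level, which is 20% and 22.5% of those tested, against 16.3% and 18.2% of all tested genes. With libraries scaled by their totals alone the split at 3 h was 5 higher and 11 lower. At 9 h, 12 were higher and 9 lower (18.5% and 19.7% of all tested genes), and at 24 h, 12 were higher and 11 lower (21.8% and 22.2%). At P10, 13 were higher and 11 lower (18.7% and 18.7%), and at P20, 11 were higher and 4 lower (13.6% and 12.5%). The median log2 fold change of the lists was -0.08, 0.06 and -0.01 at 3, 9 and 24 h and 0.13 and 0.11 at P10 and P20, against -0.01, -0.00, 0.00, 0.01 and -0.00 over all tested genes. When a log2 fold change beyond 1 was required too, the lists had 0 genes higher and 1 lower at 3 h (1.7% and 2.52% of all tested genes), 0 and 2 at 9 h (2.05% and 3.5%) and 0 and 2 at 24 h (3.5% and 4.69%). On the same rule they had 3 and 3 at P10 (6.67% and 10.5%) and 2 and 1 at P20 (3.44% and 6.19%). Without EMM 9 h replicate 3, the genes lower at 9 h numbered 5, and without P20 EMM replicate 1 or replicate 2 those lower at P20 numbered 2. With 40 or 41 genes tested, these shares are descriptions. None of their genes had a fold change as low as that of Arrdc4 in any of these 5 comparisons, or as that of Txnip at P10 and P20. Txnip and Arrdc4 were chosen with these values known, so this order carries no weight as evidence.

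Among the other alpha-arrestins, 3 of 4 were tested. Arrdc1, which recruits ubiquitin ligases to vesicles, was lower at 3 h (log2 fold change -0.56), at 9 h (-0.32) and at P10 (-0.54), and had values of -0.20 at 24 h and 0.06 at P20 that did not pass. Arrdc2 was lower at 3 h (-0.42) and did not pass at the other times or passages. Arrdc3, a regulator of adrenergic receptors, was lower at 24 h (-0.26) and higher at P10 (0.30) and P20 (0.56). None of these paralogs came near the change of Txnip or Arrdc4, which were chosen with their values known.

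Mlx also pairs with the repressors Mnt, Mxd1 and Mxd4. Mnt was higher at 3, 9 and 24 h (0.71, 0.46 and 0.26), at P10 (0.50) and at P20 (0.88). Mxd1 was higher too, with log2 fold changes of 0.74, 0.57 and 0.80 in the time course, 1.21 at P10 and 0.75 at P20. Mxd4 was lower at 3, 9 and 24 h (-0.54, -0.67 and -0.55), and its values at P10 (-0.46) and P20 (-0.35) did not pass. The gene for Mlx thus had overlapping levels in EMM and Serum/LIF while those of 2 of its partners were higher.

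The thioredoxin list holds the proteins that Txnip binds and the reductases that serve them. Txn1 was higher at 3, 9 and 24 h (0.17, 0.24 and 0.38), and its values at P10 (0.53) and P20 (0.21) did not pass. Txnrd2, the mitochondrial reductase, was higher at P10 (0.75) and P20 (0.92). Of its 5 genes tested, 3, 1 and 1 were higher at 3, 9 and 24 h, and 2 were higher at each passage (16.3%, 18.5%, 21.8%, 18.7% and 13.6% of all tested genes). Lower were 0 of the 5 in each of these comparisons, against 18.2%, 19.7%, 22.2%, 18.7% and 12.5% of all tested genes. Of the 5 Nedd4-family ubiquitin ligases, which bind alpha-arrestins, 0 passed at 3 or 9 h, and 1 (Nedd4l, 0.20) was higher and 0 lower at 24 h. At P10, 1 was higher and 2 lower, and at P20, 2 were higher and 0 lower, against the same shares of all tested genes. With 5 genes in each list, these counts are descriptions.

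Glucose transporters differed by gene. Slc2a1, whose removal from the membrane Txnip promotes, was higher at 9 h (0.25) and lower at P10 (-0.53). Its values of -0.14 at 3 h, -0.09 at 24 h and 0.09 at P20 did not pass. Slc2a3, a transporter of high glucose affinity, was higher in the time course (0.40, 0.54 and 0.36) and lower at P10 (-0.68), and its P20 value of 0.24 did not pass. Slc2a4, the insulin-responsive transporter, was higher at 9 h (0.69), at 24 h (0.80), at P10 (1.85) and at P20 (2.10). Its level was low, with means in Serum/LIF of 107 normalized counts in the time course, 31.7 at P10 and 30.1 at P20. Among the enzymes that make or use glucose-6-phosphate, Hk2 was higher at 3, 9 and 24 h (0.29, 0.48 and 0.25) and at P10 (0.96), and its P20 value of 0.56 did not pass.

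Of the 18 genes known as carbohydrate-response targets in liver, 15 were tested. At 3 h, 1 was higher and 3 lower (6.67% and 20% of the 15, against 16.3% and 18.2% of all tested genes), and at 9 h, 4 were higher and 5 lower (26.7% and 33.3%, against 18.5% and 19.7%). At 24 h, 4 were higher and 7 lower (26.7% and 46.7%, against 21.8% and 22.2%). At P10, 3 were higher and 6 lower (20% and 40%, against 18.7% and 18.7%), and at P20, 1 was higher and 3 lower (6.67% and 20%, against 13.6% and 12.5%). Pklr, the liver pyruvate kinase, was lower at 9 h (-2.09), at 24 h (-1.52) and at P10 (-2.34), from means of 26.7 and 24.6 normalized counts in Serum/LIF. Rgs16, a regulator of G-protein signalling, was lower at 9 h (-0.88), 24 h (-0.66) and P10 (-2.44). Klf10 was lower at 24 h (-0.22), P10 (-1.02) and P20 (-0.83). Me1, the cytosolic malic enzyme, was higher in all 5 comparisons, of which those at 3, 9 and 24 h share their controls (0.37, 0.54, 0.52, 0.92 and 0.75), and Fasn, the fatty acid synthase, passed in none. Promoter windows were at hand for 38 of the 48 genes. A ChoRE with up to 1 mismatch was found in 3 of them (Pklr, Rgs16 and Pnpla3) and an E-box in 6. Pnpla3 was higher at 9 h (0.51), 24 h (0.59) and P10 (1.69, from a mean of 11.1 normalized counts in Serum/LIF). Its values at 3 h (-0.20) and P20 (0.15) did not pass. Whether a match goes with the direction of change was not tested.

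**Figure D4:**
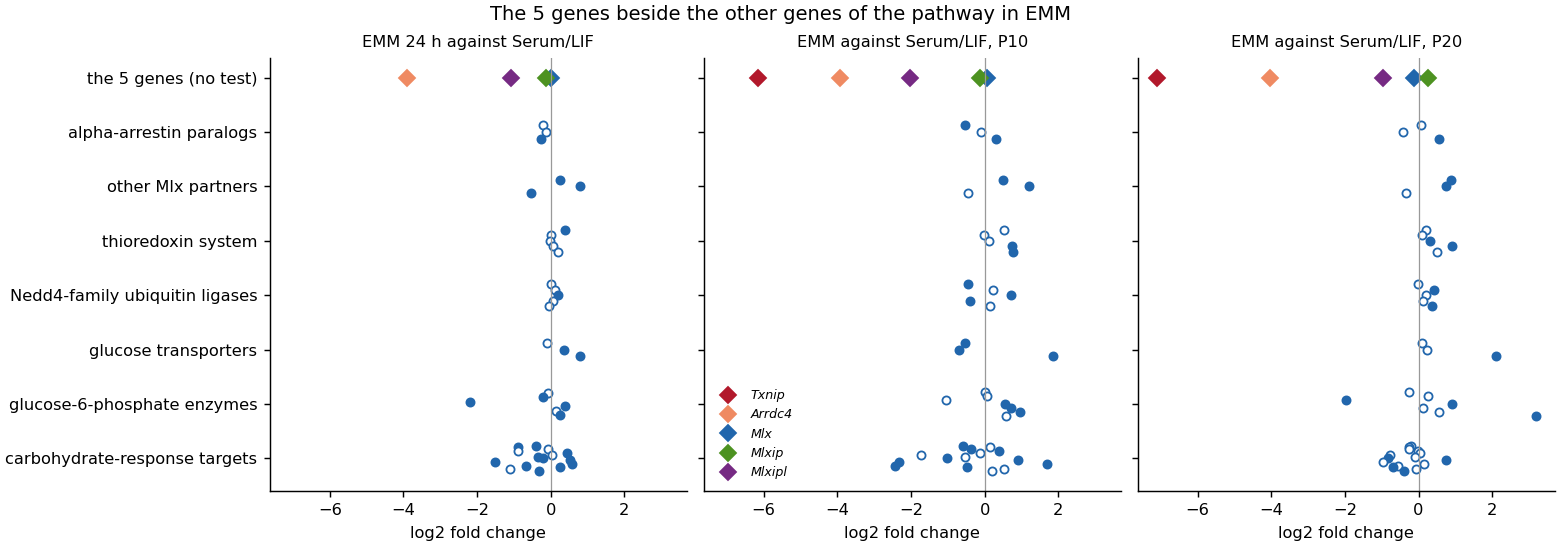
Log2 fold changes of EMM against Serum/LIF at 24 h, P10 and P20 (x axis) for the 5 genes (diamonds) and the genes of 7 lists (circles, 1 per gene). Filled circles passed an adjusted p of 0.01. Txnip and Arrdc4 lie to the left of every circle in each panel where they are shown, at -3.91 for Arrdc4 at 24 h, -6.15 and -3.93 for the 2 genes at P10, and -7.11 and -4.02 at P20. The 5 genes were chosen with these values known.

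In 2i/LIF against Serum/LIF, 13 genes of the lists were higher and 6 lower at P10 (26.4% and 25.6% of all tested genes, and 11 and 8 with library totals alone), and 10 were higher and 8 lower at P20 (21% and 23.2%). When a log2 fold change beyond 1 was required too, 6 were higher and 4 lower at P10 (11.6% and 14.8%), and 5 were higher and 5 lower at P20 (6.77% and 15.5%). Me1 was higher by 2.03 and 2.10 and Scd1, the stearoyl-CoA desaturase, by 1.86 and 2.44, while Slc2a1 was lower, with log2 fold changes of -1.65 and -1.53. Rgs16 had 0 to 2 raw counts in each 2i/LIF library.

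Markers of the labelled cell type were present throughout. The 7 ESC markers summed to between 152816 and 161848 normalized counts in the time course and between 66977.5 and 121854 in the passage experiment. Fibroblast markers (6 genes, among them Col1a1 and Thy1) moved with medium in both experiments. Their sum ran from 1803 to 1889 in Serum/LIF of the time course, from 1747 to 2047 at 3 h, from 1660.2 to 1764 at 9 h and from 1257 to 1482 at 24 h of EMM. In the passage experiment it ran from 2226 to 2661 in Serum/LIF at P10, from 3579 to 7120.2 in Serum/LIF at P20, from 286 to 364 in EMM at P10, from 152 to 201 in EMM at P20, and from 45.0 to 90.9 in 2i/LIF. At or under 3 counts in every library were 0 of the 6 in Serum/LIF, 4 in EMM at P10, 1 in EMM at P20 and 3 in 2i/LIF at each passage. The 6 primitive endoderm markers summed to between 233 and 295 in Serum/LIF of the time course, to between 350.0 and 368 at 3 h, to between 404 and 475 at 9 h and to between 552 and 578 at 24 h of EMM. In the passage experiment they summed to between 67.1 and 106 in Serum/LIF, 92.0 and 96.2 in EMM and 74.1 and 86.3 in 2i/LIF at P10, and to between 111 and 153, 130.2 and 210.4, and 65.8 and 67.1 at P20. The part of such cells in the values of the 5 genes was not tested. In bulk RNA, fewer cells of a type and less RNA per cell cannot be told apart.

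Txnip overlaps Gm15441, annotated on the opposite strand, which is named here after its values were seen. Gm15441 had raw counts of 10, 17 and 20 in Serum/LIF, 8, 4 and 8 at 3 h, 4, 4 and 2 at 9 h and 3 in each library at 24 h. In the passage experiment it had 6 to 12 counts in Serum/LIF, 1 to 8 in 2i/LIF and 0 to 2 in EMM. Whether the counting used strand is not given in the sources used here, so reads of Gm15441 and of Txnip may not be separable. Mlx likewise overlaps Psmc3ip, Mlxip overlaps Gm15747 and Mlxipl overlaps Gm43500, each on the opposite strand. Mlxip also overlaps Gm42907, Gm42908 and Gm43813 on its own strand, and how reads were split between them is not given in the sources used here.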

How the data were processed

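The time-course table holds counts deposited by the authors as whole numbers per gene without normalization, and the passage table holds expected counts (estimated counts) deposited without normalization, of which 9.982% were not whole and were rounded. GEO's processing notes name STAR and featureCounts for the first, STAR and Salmon for the second, and mm10, whereas HTSeq after STAR is what the methods of the paper describe. Library totals ran from 24074132 to 35301962 and from 6944904 to 27912928. Counts set precision, and intervals cover the spread between the 3 biological replicates.

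Genes passing filterByExpr (16049 and 16054) were scaled by TMM and fitted with edgeR 4.0.16 in R 4.3.3 (quasi-likelihood, all groups of an experiment in 1 model). P-values were adjusted by Benjamini-Hochberg across every tested gene, with a threshold of 0.01. The paper's methods used DESeq2 with a fold threshold, which was an alternative here. A normalized count is a count divided by the library's effective size, times the mean effective size. Symbols and coordinates came from GENCODE M21, for 52397 and 55141 genes. Promoter windows came from RefSeq.

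The 5 genes and the lists were chosen with earlier results of these data known. Any gene of a list could be named, except 1 that is counted in its list but not reported here, and the 5 genes most like Txnip and Arrdc4. On simulated counts, 199 of 200 changed genes were recovered in the time course at 3 h (3 false calls, 15814 genes) and 192 of 200 at P10 (0 false calls, 15504 genes). The simulated counts were drawn from the fitted model itself. Genes with low counts were not among those changed, and no change under 1 in size on the log2 scale was simulated. The recovery therefore does not cover such genes or changes. Alternatives were other scalings (DESeq2 size factors, library totals), other filters, DESeq2 1.42.0, fits of the 2 groups alone, the replicate number as a block, other thresholds and each replicate left out.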

Additional observations from a re-analysis of the deposited data

Results flagged for a closer look

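Rgs16 had an effect of EMM that differed between the passages. Against Serum/LIF its log2 fold change was -2.44 (SE 0.29) at P10 and -0.55 (SE 0.25) at P20, and the P20 effect minus the P10 effect was 1.89 (SE 0.39, adjusted p = 0.00142, edgeR's quasi-likelihood test of the interaction over all tested genes). Its normalized counts ran from 80.0 to 99.5 in Serum/LIF and from 11.5 to 19.3 in EMM at P10, and from 48.8 to 66.4 and from 38.0 to 42.1 at P20. The thresholds were an adjusted p under 0.01 and a difference above 1 in size on the log2 scale, which 8.4% of all tested genes passed. Rgs16 was 1 of 41 tested genes of the pathway lists to pass both. By adjusted p alone 4 more passed with smaller differences, among them Slc2a3 (0.92, SE 0.11, adjusted p = 9.20e-06 by the same test). For Rgs16 the difference is given as a value, without an explanation.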

How the results depend on the processing

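Of 151 values of Txnip and Arrdc4 against Serum/LIF under other settings, 1 moved by more than the spread between replicates. It was Arrdc4 at P20 without P20 EMM replicate 2 (-4.32, with a range of -4.32 to -3.90 over the replicates left out). With each replicate left out, Txnip lay between -6.29 and -5.83 at P10 and between -7.20 and -7.03 at P20, and Arrdc4 between -2.22 and -2.08 at 3 h. Of 890 values of the 5 genes in all, 880 moved by less than 1 SD and 10 by more. The sign was the opposite of the reported one in 25 of them (17 of Mlx, 4 of Arrdc4 and 4 of Mlxip), where the reported values were at most 0.13 in size. Arrdc4 in EMM at P20 against P10 had either sign, from -0.36 to 0.06.

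With a log2 fold change above 1 also required, the pathway lists had 0 higher and 1 lower at 3 h, 0 and 2 at 9 h, 0 and 2 at 24 h, 3 and 3 at P10, and 2 and 1 at P20. On that rule 2i/LIF against Serum/LIF gave 6 higher at P10, and at P20 it gave 5 in each direction. With library totals alone, 5 were higher at 3 h. With an adjusted p under 0.05, 11 were lower in 2i/LIF at P10. With each replicate left out, the genes lower at 9 h numbered 5 to 9 (5 without EMM 9 h replicate 3), and those lower at P20 numbered 2 to 4 (2 without P20 EMM replicate 1 or replicate 2). In total 18 of 218 counts moved by over 1.5 times.

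Replicate numbers are those of the sample titles. In the time course, the deposited column names number the EMM libraries otherwise, so libraries of Serum/LIF and EMM with the same title number have different numbers there. In 20 of 21 pairs of groups, libraries with the same title number did not all correlate above 0.1. This rule cannot show that pairing is absent. Deviations of same-numbered libraries had a median correlation of 0.00674 (-0.134 to 0.207) in the time course and 0.00334 (-0.212 to 0.299) in the passage experiment. The exception was 2i/LIF at P10 and P20, where same-numbered libraries correlated at 0.134 to 0.299 and others at -0.245 to 0.0520. Serum/LIF and EMM libraries that share a column number correlated at 0.0231 and -0.00315 at 3 h, 0.116 and -0.132 at 9 h, and 0.280 and 0.152 at 24 h. Pairing by column number was not tested, and the block used title numbers. With the block described next, the P20 against P10 values in 2i/LIF were 0.83 for Txnip, 1.27 for Arrdc4, 1.30 for Mlxipl, -0.36 for Mlxip and 0.13 for Mlx. With the replicate number as a block, Txnip was -6.16 at P10 and -7.11 at P20, Arrdc4 -2.16 at 3 h, and the lists had 9 genes higher and 9 lower at 3 h and 11 higher and 3 lower at P20. In the passage experiment, where it was run, scaling without genes of chromosomes 6 and 8, chosen after seeing the data, moved no value of Txnip or Arrdc4 by more than 1 SD. Each group had 3 libraries, which limits how well the spread of genes with few counts, such as Pklr, is known.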
